A study of Mus musculus with 8 samples.

Results

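The response of wild type (WT) mouse beta cells to Exendin-4 (Ex-4) was read from single nucleus RNA-seq of pancreatic islets, as the difference between the beta cell pool of islets treated with Ex-4 (WT Ex-4) and the beta cell pool of untreated islets (WT CON). These were 2 of the 54 pools of the deposited table, which holds 1 pooled value per gene for each of 6 conditions in each of 9 cell types. Of the 17362 genes in the table, 10093 were kept for the comparison because their mean over the 6 beta cell pools reached the 40th percentile among genes with signal. Islets were isolated, cultured and treated with 10 nM Ex-4 for 16 h or left untreated, and nuclei were sorted and barcoded in 8 wells per condition before being split over 8 sublibraries that each contain every condition. The other 4 beta cell pools came from WT islets treated with forskolin (FSK) and from islets of mice carrying Med14 S983A in the whole body, treated in the same 3 ways. Each condition is 1 pool, so there is no replicate check, no p-value can be given, and treatment cannot be told apart from islet preparation or barcode wells. A pool also cannot tell fewer cells of a kind apart from less RNA per cell.

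Ex-4 is a stable peptide agonist of the GLP-1 receptor, a G protein coupled receptor that beta cells carry at their surface. Its activation raises cAMP, which acts through protein kinase A and Epac to increase glucose-stimulated insulin secretion and, through the transcription factor CREB, to induce genes. Early CREB targets such as Fos are transient, whereas genes of secretion and metabolism follow over many hours of exposure, so that a late time point reads mostly the sustained response. Nuclear RNA is rich in unspliced transcripts and holds little mature cytoplasmic mRNA.

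Values are given as CP10K, the counts of a gene per 10000 counts of its pool. The whole counts behind the values were recovered, and each is followed by its exact 95% Poisson interval, which covers counting error only and not variation between islets. All intervals take the counts as raw, and whether they were raw or model-corrected is not known. This matters most for genes with few counts. The beta cell pools held 3012428 counts (WT CON) and 2981093 counts (WT Ex-4), so 1 count was worth about the same in both. Differences (Ex-4 minus CON) are on the log2(CP10K + 1) scale unless a plain fold is named, and a gene was called at 1.5-fold, or 0.58, on that scale, which asks more than 1.5-fold of a gene with a low level. The plain fold is the ratio of the CP10K values, with an exact 95% counting interval.

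Both pools carried the beta cell markers: Ins1, Ins2, Iapp, Slc2a2, G6pc2, Mafa, Ucn3 and Glp1r summed to 52.9 CP10K before and 46.1 after Ex-4. Glp1r, the receptor of Ex-4, was at 9.39 CP10K in WT CON (2829 counts, 9.05 to 9.74) and 7.68 CP10K in WT Ex-4 (2290 counts, 7.37 to 8.003), which is 1.22-fold lower (1.16 to 1.29), against 0.882 CP10K in WT CON alpha cells and 1.90 in WT CON delta cells. Hormones of the other endocrine cells stayed low in both. Gcg was at 0.375 CP10K in WT CON and 0.362 in WT Ex-4 beta cells, against 85.8 in WT CON alpha cells, Sst at 0.0299 and 0.0671 and Ppy at 0.110 and 0.0973. The summed level of 7 alpha markers was 1.68 CP10K in WT CON and 1.18 in WT Ex-4 (5 of 7 higher in WT Ex-4), that of 4 delta markers 0.0531 and 0.0805, with 2 at 0 in both pools, that of 5 endothelial markers 0.0896 and 0.117, and that of 4 macrophage markers 0.0332 and 0.0470. All 4 stellate and smooth muscle markers in the table, the only acinar marker in it and 2 of 3 ductal markers were at 0 in both beta cell pools, while the remaining ductal marker, Krt7, was at 1.497 CP10K in WT CON (451 counts) and 1.75 in WT Ex-4 (521 counts). The part of other cells in the results was not tested. Med14 itself was at 0.478 CP10K in WT CON (144 counts, 0.403 to 0.563) and 0.463 CP10K in WT Ex-4 (138 counts, 0.389 to 0.547).

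Several measures of the libraries differed between the pools and stand beside every result below. The ribosomal RNA transcript Rn18s-rs5 took 2.12% of all counts in WT CON and 5.67% in WT Ex-4. In WT Ex-4, 5060 genes of the table were at 0 counts but only 17 at 1 count, against 2038 and 607 in WT CON, and genes with 1 to 5 counts numbered 168 against 2748. Over the 95 genes called higher, the median level was 2.03 CP10K in WT CON and 4.15 in WT Ex-4, beside 1.63 in WT FSK, 4.25 in mutant CON, 4.42 in mutant Ex-4 and 1.77 in mutant FSK. Over the 220 called lower, it was 5.11, 2.57, 5.13, 2.16, 2.11 and 4.75 CP10K in the same order. Thus WT Ex-4 lay near the untreated and Ex-4 treated mutant pools, and WT CON near both FSK pools. Rn18s-rs5 followed the same division, at 1.75% of counts in WT FSK and 1.51% in mutant FSK but 7.47% in mutant CON and 9.14% in mutant Ex-4. The part that RNA composition or preparation had in the differences was not tested.

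Ex-4 treated beta cells had 95 kept genes higher (0.941% of 10093) and 220 lower (2.18%). Each of them had separate counting intervals in both pools, which genes picked for a large difference at such counts mostly have. Of 9992 genes compared by plain ratio, 3381 had a ratio interval above 1 and 2215 below 1. The smallest count behind any call was 56 for the higher and 67 for the lower genes. As plain folds the higher genes ranged from 1.57-fold to 5.34-fold (median 2.04) and the lower genes from 1.54-fold to 4.33-fold (median 1.97). The median difference of all kept genes was 0.03. Just inside the threshold stood Kmt2b (0.59) and Gm15564 (0.59) among the higher genes and Emb (-0.59) and Slc9a9 (-0.59) among the lower, and just outside it stood Rsrc2 (0.58), Brd8 (0.58), Snap25 (-0.58) and Wwox (-0.58). Judged by plain ratio at 1.5-fold, among the 9992 kept genes with at least 20 counts in the larger pool, 2744 were higher (27.5%) and 1239 lower (12.4%). Higher genes were therefore 30.2% of the calls on the log2(CP10K + 1) scale and 68.9% by plain ratio, because many low genes were higher after Ex-4 by ratio without reaching 0.58 on the log scale. The higher genes included splicing, translation and chromatin genes, and the lower genes cell adhesion, ion channel, transcription factor and secretory granule genes, as counted by list below. Each list count stands beside the shares over all kept genes, 0.941% higher and 2.18% lower. The lists were chosen with earlier results of these data known, so a count above these shares is a description and no independent support. The shares also take in many low genes, since no kept gene with a mean level below 0.3 CP10K was called.

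**Figure D1:**
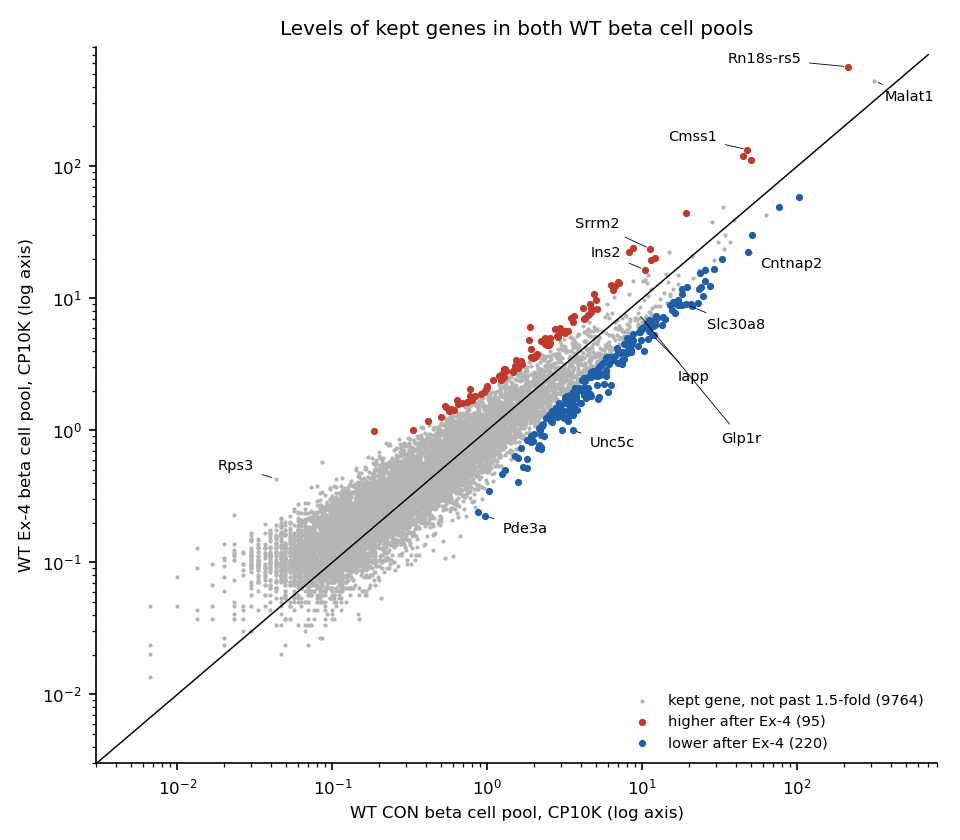
Level of each kept gene with a count in both pools in the WT CON (x) and WT Ex-4 (y) beta cell pools, in CP10K on log axes, with equality as a line. Red points are the 95 genes called higher and blue points the 220 called lower. Lower genes lie mostly at high levels (median 5.11 CP10K in WT CON), and below about 1 CP10K most of the cloud sits above the line without reaching the threshold.

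Both insulin transcripts were higher after Ex-4, whereas 5 other genes of the hormone, processing and granule list were called lower. Ins2, a mouse insulin gene, was at 10.4 CP10K in WT CON (3135 counts, 10.0 to 10.8) and 16.4 CP10K in WT Ex-4 (4885 counts, 15.9 to 16.9), 1.57-fold higher (1.51 to 1.65). Ins1, its partner, was at 4.54 CP10K in WT CON (1369 counts, 4.31 to 4.79) and 6.58 CP10K in WT Ex-4 (1962 counts, 6.29 to 6.88), 1.45-fold higher (1.35 to 1.55), which left it under the threshold at 0.45. For both insulin genes the counting intervals of the pools were apart. Iapp, the islet amyloid polypeptide that is secreted with insulin, was at 11.6 CP10K in WT CON (3498 counts, 11.2 to 12.003) and 5.27 CP10K in WT Ex-4 (1571 counts, 5.01 to 5.54), 2.20-fold lower (2.08 to 2.34). Slc30a8, the zinc transporter of the insulin granule, was at 19.3 CP10K in WT CON (5799 counts, 18.8 to 19.8) and 8.98 CP10K in WT Ex-4 (2677 counts, 8.64 to 9.33), 2.14-fold lower (2.05 to 2.24). The prohormone convertase Pcsk2 (76.4 to 49.3 CP10K, 1.55-fold lower, interval 1.52 to 1.58) and the amidating enzyme Pam (4.68 to 2.78 CP10K, 1.68-fold lower, interval 1.54 to 1.84) were also lower. Iapp and Slc2a2 overlap other kept genes (Slco1a5 and 1700112D23Rik), as do Pcsk2, Hspa5, Akap9, Son and Ddx5, and whether counting used strand is not stated. Of 22 kept genes for hormones, processing and granule content, 1 was called higher (Ins2) and 5 lower (Slc30a8, Iapp, G6pc2, Pcsk2 and Pam), with a median of -0.30. Granins differed in sign. Chga had a difference of 0.39 (10.1 to 13.6 CP10K) and Chgb of 0.53 (1.06 to 1.96 CP10K), and Scg2 of 0.34, whereas Scg3 was at -0.32 and Scg5 at -0.31. The processing enzymes Pcsk1 and Cpe, not called, were at -0.43 and -0.33.

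Some genes of glucose entry and calcium signaling were lower. Of 24 kept genes for glucose sensing and electrical coupling, 6 were called lower and 0 higher, with a median of -0.08 and 9 members above 0. With the trend on gene span removed (described below) 2 lower calls were left. Slc2a2, the glucose transporter of rodent beta cells, was at 12.02 CP10K in WT CON (3621 counts, 11.6 to 12.4) and 6.91 CP10K in WT Ex-4 (2059 counts, 6.61 to 7.21), 1.74-fold lower (1.65 to 1.84). G6pc2, the islet glucose-6-phosphatase, counted in the granule list, was at 4.20 CP10K in WT CON (1265 counts, 3.97 to 4.44) and 1.90 CP10K in WT Ex-4 (567 counts, 1.75 to 2.07), 2.21-fold lower (2.00 to 2.44). Of the ATP-sensitive potassium channel, the pore Kcnj11 differed by 0.23 and the sulfonylurea receptor Abcc8 had 6293 counts in WT CON and 6220 in WT Ex-4. The calcium channel subunits Cacna2d1 (8.09 to 4.28 CP10K) and Cacnb2 (19.6 to 12.2 CP10K), the muscarinic receptor Chrm3 (25.3 to 13.5 CP10K), the cation channel Trpm3 (27.2 to 12.4 CP10K) and the calcium-activated potassium channel Kcnma1 (18.1 to 11.7 CP10K) made up the rest of the lower calls of this list. The pore-forming subunits Cacna1c (-0.49) and Cacna1d (-0.38) were below 0 without reaching the threshold. Chrm3 and Slc2a2 differed by -0.85 and -0.72 in WT beta cells, 0.03 and -0.02 in WT alpha cells, and -0.84 and -1.01 in WT delta cells.

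Among 30 kept islet transcription factors, 10 were called lower and 0 higher, with a median of -0.11, against 2.18% lower over all kept genes. Calls depend on level, and of 424 kept genes at 3 to 10 CP10K (mean of both pools) 97 were called lower. By plain ratio 12 of 30 factors were lower (40%, against 12.4% of all genes compared) and 3 higher (10% against 27.5%). With the span trend removed 6 were lower and 0 higher. The lower factors included Pbx3, Dach1, Zbtb20, Glis3, Rfx3, Esrrg, Foxo1, Meis1 and Meis2. Glis3, a zinc finger factor needed for insulin gene transcription, was at 13.4 CP10K in WT CON (4035 counts, 13.0 to 13.8) and 6.32 CP10K in WT Ex-4 (1885 counts, 6.04 to 6.62), 2.12-fold lower (2.01 to 2.24). Rfx3, a regulator of endocrine differentiation, was 2.44-fold lower (2.21 to 2.69) and Foxo1, an insulin-regulated forkhead factor, 1.87-fold lower (1.69 to 2.08). Mafa, a transcriptional activator of the insulin genes, went the other way by ratio, at 0.505 CP10K in WT CON (152 counts, 0.428 to 0.591) and 1.14 CP10K in WT Ex-4 (340 counts, 1.02 to 1.27), 2.26-fold higher (1.86 to 2.76), with a difference of 0.51 that missed the threshold because its level was low. Pdx1 (1.64 to 2.07 CP10K) and Nkx6-1 (1.69 to 2.12 CP10K), which hold beta cell identity, differed by 0.22 and 0.21. None of these was among the factors called lower.

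Several genes of the pathway that Ex-4 engages were lower. Of 59 kept genes for the GLP-1 receptor, G proteins and cAMP machinery, 5 were called lower and 1 higher, with a median of -0.12. With the span trend removed 2 were lower and 1 higher, with a median of -0.04. Grk5, a kinase that desensitizes G protein coupled receptors, was at 7.35 CP10K in WT CON (2213 counts, 7.04 to 7.66) and 3.39 CP10K in WT Ex-4 (1010 counts, 3.18 to 3.60), 2.17-fold lower (2.01 to 2.34). The cAMP-degrading phosphodiesterases Pde3b (3.67 to 1.83 CP10K), Pde7b (3.20 to 1.6001 CP10K) and Pde3a (0.973 to 0.225 CP10K) were lower by 2.01-fold, 2.00-fold and 4.33-fold. Gnaq, the alpha subunit of Gq that couples Chrm3 to phospholipase C, was 1.82-fold lower (1.66 to 2.00). Rapgef4 (Epac2), the cAMP sensor that acts beside protein kinase A, was at -0.56, and the phosphodiesterase Pde4d at -0.55, both just under the threshold. The only member called higher was Akap9, an anchor of protein kinase A (4.18 to 6.96 CP10K). Gipr, the receptor of the other incretin, differed by 0.32 (3.06 to 4.08 CP10K). The inhibitory G protein subunit Gnai1, named after its values were seen, had 62 counts in WT CON and 16 in WT Ex-4, 3.83-fold lower (2.19 to 7.12).

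Of 23 kept cAMP-induced early and delayed genes, 0 were called in either direction, with a median of 0.03. Fos, an immediate-early CREB target, had 7 counts in WT CON and 41 in WT Ex-4, 5.92-fold higher (2.63 to 15.6). Per1, a circadian repressor gene that CREB induces, had 88 counts in WT CON and 168 in WT Ex-4, 1.93-fold higher (1.48 to 2.53). Crem, which encodes the inducible repressor of cAMP responses, was 1.61-fold lower (1.32 to 1.96). Nr4a1 (0.04), Nr4a2 (0.03), Sik1 (0.03) and Irs2 (0.08) stayed close to the median of all kept genes. By plain ratio 7 of 21 members were higher (33.3%, against 27.5% of all genes compared) and 3 lower (14.3% against 12.4%), close to the shares over all genes.

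A chaperone of the endoplasmic reticulum (ER), Hspa5, was higher. Of 37 kept genes for ER folding and the unfolded protein response, 1 was called higher and 0 lower, with a median of 0.10, and with the span trend removed none was called. By plain ratio 12 of 37 were higher (32.4%, against 27.5% of all genes compared) and 1 lower (2.70% against 12.4%). Hspa5 (BiP), the central ER chaperone, was at 0.833 CP10K in WT CON (251 counts, 0.733 to 0.943) and 1.83 CP10K in WT Ex-4 (546 counts, 1.68 to 1.99), 2.20-fold higher (1.89 to 2.56). Calr (2.39-fold higher, interval 1.93 to 2.99) and Hsp90b1 (1.62-fold higher, interval 1.46 to 1.80), which also fold secretory proteins, followed at differences of 0.48 and 0.49. At low levels stood Ppp1r15a (GADD34), which restarts translation after stress, with 35 counts in WT CON and 105 in WT Ex-4, and the ER factor Creld2, with 27 counts in WT CON and 78 in WT Ex-4. Ero1b, the oxidase that supports proinsulin folding, was at -0.55 and the stress sensor Atf6 at -0.34. Hspa5 was at 2.11 CP10K in mutant CON and 1.87 in mutant Ex-4, both above WT CON.

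**Figure D2:**
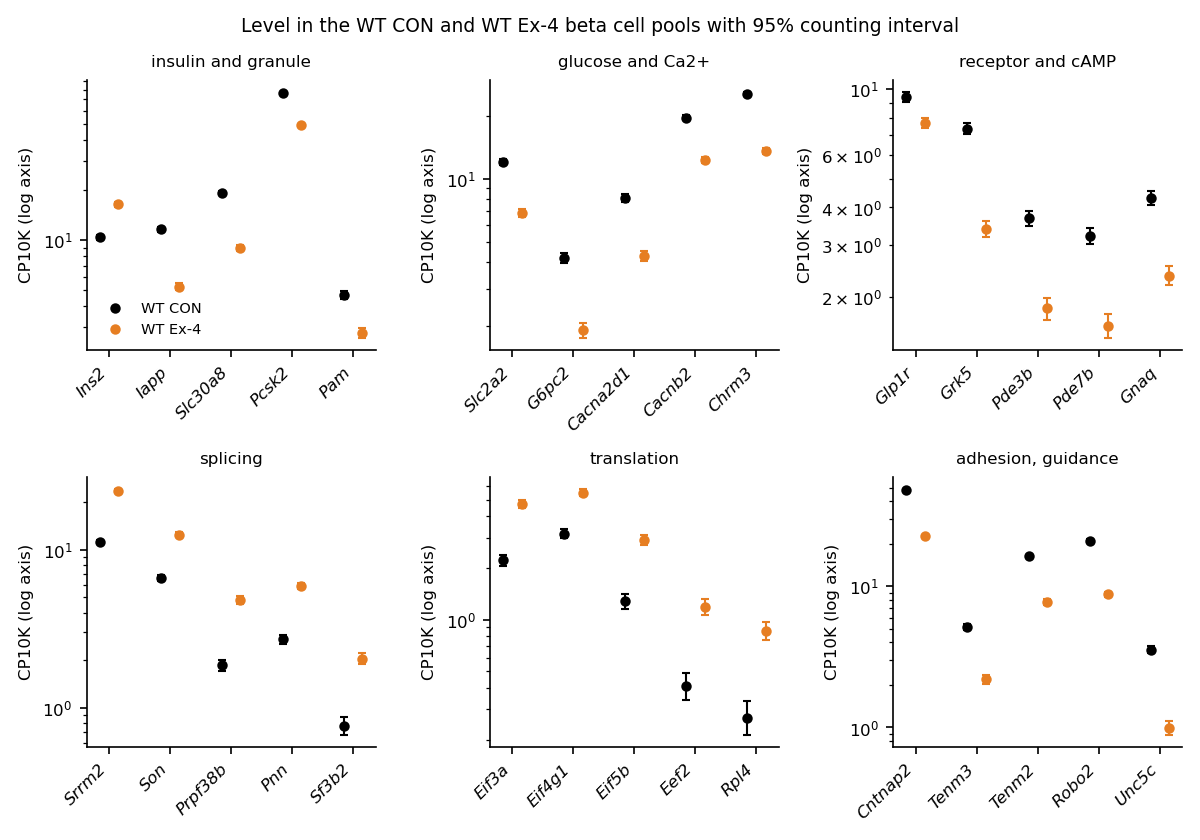
Level in CP10K (log axis, scale differs by panel) of 30 genes in the WT CON (black) and WT Ex-4 (orange) beta cell pools, each 1 pool, with bars for the exact 95% counting interval. Ins2 and every splicing and translation gene shown are higher in WT Ex-4, and the others are lower.

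Translation genes were mostly higher, many of them at levels too low for a call. Of 33 kept translation factors, 4 were called higher and 0 lower, with a median of 0.16. By plain ratio 21 of 33 were higher (63.6%, against 27.5% of all genes compared). The median span of this list was 16.5 kb. In the shortest of 4 span groups of kept genes, 63.6% were likewise higher by ratio. With the span trend removed 2 translation factors were called higher. Eif3a, the largest subunit of the initiation factor that binds the small ribosomal subunit, was at 2.22 CP10K in WT CON (669 counts, 2.06 to 2.40) and 4.75 CP10K in WT Ex-4 (1415 counts, 4.50 to 5.0005), 2.14-fold higher (1.95 to 2.35). Eif5b, which joins the ribosomal subunits, was 2.27-fold higher (2.02 to 2.57), the scaffold Eif4g1 1.73-fold higher (1.596 to 1.88) and the elongation factor Eef2 2.87-fold higher (2.33 to 3.55). Of 61 kept cytosolic ribosomal protein genes, 0 were called and the median was 0.11, yet 60 of 61 lay above 0, against 5927 of 10093 kept genes. By plain ratio 50 of 59 were at or above 1.5-fold and 0 were lower, with a median of 2.35-fold against 1.12-fold for all genes compared. The median span of the ribosomal protein list was 4.97 kb, and the shortest span group as a whole had a median of 1.72-fold. With the span trend removed the ribosomal protein median was -0.01. Rpl4 had 81 counts in WT CON and 257 in WT Ex-4, 3.21-fold higher (2.49 to 4.17), and Rps24 had 92 counts in WT CON and 260 in WT Ex-4, 2.86-fold higher (2.24 to 3.66). Rps3 showed the widest ratio among the ribosomal genes named here, with 13 counts in WT CON and 128 in WT Ex-4. Ribosomal protein genes have many processed pseudogenes, so their counts are uncertain. A list of 71 nucleolar and ribosome biogenesis genes, chosen after values were seen, had 65 kept members, of which 63 lay above 0. Of the 65, 4 were called higher (Ncl, Sirt7, Rbm28 and Ddx24) and 0 lower, with 1 call left once the span trend was removed. By plain ratio 54 of 65 were higher (83.1%, against 27.5% of all genes compared). Ncl (nucleolin) was at 1.09 CP10K in WT CON (327 counts, 0.971 to 1.21) and 2.40 CP10K in WT Ex-4 (714 counts, 2.22 to 2.58), and Ubtf, the factor that recruits RNA polymerase I, was 2.22-fold higher (1.85 to 2.66).

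Splicing and mRNA processing genes gave the most calls among the lists that were higher. Of 135 kept members, 17 were called higher and 2 lower, the median was 0.19, and 107 lay above 0. Srrm2, a scaffold of nuclear speckles, was at 11.2 CP10K in WT CON (3384 counts, 10.9 to 11.6) and 23.7 CP10K in WT Ex-4 (7051 counts, 23.1 to 24.2), 2.11-fold higher (2.02 to 2.19). Son, the other speckle scaffold, was at 6.62 CP10K in WT CON (1994 counts, 6.33 to 6.92) and 12.5 CP10K in WT Ex-4 (3723 counts, 12.1 to 12.9), 1.89-fold higher (1.79 to 1.99). These were joined by the spliceosome factors Prpf38b (1.86 to 4.82 CP10K, 2.59-fold higher, interval 2.34 to 2.86) and Sf3b2 (0.773 to 2.05 CP10K, 2.65-fold higher, interval 2.27 to 3.09), the kinase Prpf4b (2.05-fold higher, interval 1.92 to 2.20) and the exon junction partners Pnn (2.17-fold higher, interval 2.00 to 2.36) and Acin1 (2.03-fold higher, interval 1.89 to 2.18). Srsf11, Srrm1, Snrnp70, Rbm25, Luc7l3, Pnisr, Ddx5 and the heterogeneous nuclear ribonucleoproteins Hnrnpu, Hnrnpdl and Hnrnpa3 completed the higher calls, at differences of 0.65 to 0.82. The 2 lower members, Celf2 (1.91-fold lower, interval 1.68 to 2.17) and Elavl4 (2.13-fold lower, interval 1.91 to 2.39), encode RNA-binding proteins best known from neurons. Outside the list, and named after values were seen, the speckle and RNA-binding genes Safb, Leng8, Zranb2, Pabpn1, Ccnl2, Cdk11b, Ythdc1, Zc3h13 and Arglu1 were also called higher. The level of Srrm2 across the beta cell pools was 11.2 CP10K in WT CON, 7.72 in WT FSK, 23.7 in WT Ex-4, 26.8 in mutant CON, 28.7 in mutant Ex-4 and 8.49 in mutant FSK.

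Histone methyltransferases were mostly higher where they were called. Of 29 kept chromatin and histone methyltransferase genes, 5 were called higher and 1 lower, with a median of 0.17, and with the span trend removed 2 were higher and 1 lower. Kmt2d, a histone methyltransferase of enhancers, was at 2.38 CP10K in WT CON (716 counts, 2.21 to 2.56) and 4.81 CP10K in WT Ex-4 (1434 counts, 4.56 to 5.07), 2.02-fold higher (1.85 to 2.22). Its relatives Kmt2a (1.64-fold higher, interval 1.53 to 1.75), Kmt2b (2.13-fold higher, interval 1.82 to 2.49) and Setd1a (2.35-fold higher, interval 1.97 to 2.81) and the histone methyltransferase Dot1l (2.05-fold higher, interval 1.78 to 2.37) were the other higher members. Smyd3, a methyltransferase with several substrates, was 2.21-fold lower (2.07 to 2.35). The nucleosome remodelers Chd3 (0.65), Chd4 (0.70), Atrx (0.65) and Baz1b (0.62), named after values were seen, were called higher as well. Of 24 kept Mediator genes, Med12 (0.644 to 1.59 CP10K, 2.46-fold higher, interval 2.08 to 2.93) and Cdk8 (19.1 to 44.2 CP10K) of the kinase module were called higher and 0 lower, and the median was 0.03. Cdk8 also stands on the list of loci linked to ribosomal RNA. Rn7sk, the 7SK RNA that holds the elongation factor P-TEFb inactive, was at 1.52 CP10K in WT CON (458 counts, 1.38 to 1.67) and 3.43 CP10K in WT Ex-4 (1022 counts, 3.22 to 3.65), 2.25-fold higher (2.02 to 2.52), and was the only call among 15 kept elongation and 7SK genes (median 0.14).

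The largest differences on the higher side came from ribosomal RNA and from the loci listed with it. Of 11 kept members of the ribosomal RNA linked list, 8 were called higher, with a median of 1.29. Rn18s-rs5 (chr17:40157244-40159092 in GRCm39) was at 212 CP10K in WT CON (63996 counts, 211 to 214) and 567 CP10K in WT Ex-4 (169013 counts, 564 to 569.7), 2.67-fold higher (2.64 to 2.69). Lars2 (2.66-fold higher, interval 2.60 to 2.71), Camk1d (2.76-fold higher, interval 2.64 to 2.89), Gm19951 (2.71-fold higher, interval 2.59 to 2.84), Cmss1 (2.81-fold higher, interval 2.75 to 2.86) and Filip1l (3.22-fold higher, interval 2.93 to 3.55) had ratios close to it. Cmss1 (chr16:57122363-57427253) and Filip1l (chr16:57173135-57421279) overlap on opposite strands, so reads of the shared stretch may be counted in either. The 2 mitochondrial ribosomal RNAs mt-Rnr1 and mt-Rnr2 stood at 0.55 and 0.46. Malat1, a nuclear long noncoding RNA, was at 0.50 and Neat1 at 0.43, while Lncpint was the 1 lower call among 11 kept nuclear noncoding RNAs. When both columns were rescaled without these ribosomal RNA linked and mitochondrial genes, 142 genes were higher and 171 lower (45.4% higher among calls), of which 87 and 171 were also called before rescaling.

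Genes of neuronal type cell adhesion gave the most lower calls of any list. Of 49 kept synaptic and immunoglobulin adhesion genes, 16 were called lower and 0 higher, with a median of -0.38, against 2.18% lower over all kept genes. By plain ratio 29 of 47 were lower (61.7%, against 12.4% of all genes compared) and 6 higher (12.8% against 27.5%). The median span of this list was 718 kb, and with the span trend removed 2 were lower and 2 higher. Cntnap2, an adhesion protein that clusters potassium channels on axons, was at 48.0 CP10K in WT CON (14456 counts, 47.2 to 48.8) and 22.6 CP10K in WT Ex-4 (6728 counts, 22.03 to 23.1), 2.13-fold lower (2.07 to 2.19). The teneurins Tenm2, Tenm3 and Tenm4 (-0.99, -0.94 and -0.85) and their partner latrophilin Adgrl3 (2.95-fold lower, interval 2.67 to 3.26) were lower together. Tafa1, a secreted protein of the brain, had the lowest difference of all kept genes (-1.24, 3.07-fold lower, interval 2.79 to 3.37). Ncam1, Negr1, Ntm, Cntn1, Ptprd, Magi1, Magi2, Adgrb3 and Csmd2 were lower as well, at -0.88 to -0.60. Axon guidance gave 4 lower calls of 27 kept, the receptors Robo1 (6.31 to 2.21 CP10K), Robo2 (20.9 to 8.77 CP10K) and Unc5c (3.55 to 1.00 CP10K) and the ligand Efna5 (3.42 to 1.33 CP10K), while the median of that list was -0.02. With the span trend removed the axon guidance list had 4 lower and 2 higher calls. Cadherins and catenins gave 6 of 22, among them Cdh2 (N-cadherin, 1.97-fold lower, interval 1.80 to 2.15) and Cdh8 (2.20-fold lower, interval 2.04 to 2.37), around a median of -0.01, and 1 lower and 1 higher call with the span trend removed. In the sarcoglycan and dystrophin list Sgcz (2.52-fold lower, interval 2.41 to 2.63) and Sgcd (2.37-fold lower, interval 2.00 to 2.82) were lower and Sspn (2.89-fold higher, interval 2.41 to 3.49) was higher, of 12 kept. With the span trend removed that list had 1 lower and 3 higher calls.

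Some potassium channel and exocytosis genes were lower. Of 35 kept potassium channel genes, 5 were called lower and 0 higher (median -0.13), led by Kcnip4, an accessory subunit of Kv4 channels, at 24.8 CP10K in WT CON (7468 counts, 24.2 to 25.4) and 10.5 CP10K in WT Ex-4 (3127 counts, 10.1 to 10.9). Exocytosis and vesicle fusion gave 3 lower calls of 40, namely Cadps, which primes dense core granules (29.1 to 16.7 CP10K, 1.74-fold lower, interval 1.68 to 1.80), Syt14 (1.92-fold lower, interval 1.73 to 2.14) and Stxbp6 (2.17-fold lower, interval 1.89 to 2.496). The t-SNARE Snap25 was at -0.58, just short of the threshold. With the span trend removed the potassium channels had 1 lower call and the exocytosis list 0 lower and 1 higher. Of 46 kept insulin, IGF and growth signaling genes, 7 were called lower and 1 higher (median -0.20), the higher being Camk1d, whose locus is also linked to ribosomal RNA, and with the span trend removed 2 were lower. Ghr (17.1 to 9.10 CP10K) and Prlr (12.5 to 7.05 CP10K), receptors through which growth hormone, prolactin and placental lactogen act on beta cells, were 1.88-fold and 1.77-fold lower. Plcb1, Mapk10, Prkca and Foxo1, effectors on the same list, were lower by 0.65 to 0.79 on the log2 scale. None of 11 kept glutamate receptor genes was called (median 0.04).

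Few metabolic genes were called. Of 39 kept glycolysis, pyruvate and TCA enzymes, 1 was called lower and 0 higher (median 0.07): Gpd2, the mitochondrial glycerol phosphate dehydrogenase, 1.73-fold lower (1.59 to 1.88). Aldoa, a glycolytic aldolase at a low level, had 55 counts in WT CON and 169 in WT Ex-4, 3.11-fold higher (2.28 to 4.29). No sterol or fatty acid synthesis gene (33 kept, median 0.02) and no nuclear-encoded respiratory chain gene (44 kept, median 0.05) was called. No kept gene with a mean level below 0.3 CP10K was called at all, so a lack of calls says little about low genes. By plain ratio 12 of 39 glycolysis, 8 of 31 sterol and 14 of 44 respiratory chain genes were higher, and 4, 3 and 1 were lower. The higher shares were 30.8%, 25.8% and 31.8%, against 27.5% of all genes compared. In the clock list Rora was the only call of 19 (51.0 to 30.2 CP10K, 1.69-fold lower, interval 1.65 to 1.74), with Arntl at -0.37 and Per3 at 0.31. With the span trend removed neither the glycolysis list nor the clock list had a call. Cell cycle entry (11 kept, median 0.01), apoptosis and inflammation (23 kept, median 0.05), heat shock chaperones (22 kept, median 0.18) and the early stress response to dissociation (6 kept, median 0.17) had no call in either direction. By plain ratio 3 of 10, 11 of 23, 10 of 22 and 5 of 6 were higher, in that order, and 1, 1, 0 and 0 lower. The chaperone Hsp90ab1 was higher by ratio (2.56-fold, interval 2.04 to 3.24). So were Hspa1a (1.79-fold higher, interval 1.31 to 2.46) and Jun (2.04-fold higher, interval 1.45 to 2.90), which mark heat or handling stress. An interval above 1 was also found for 3381 of all 9992 genes compared. Hspa1a has a near-identical copy in Hspa1b, so its count is uncertain.

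**Figure D3:**
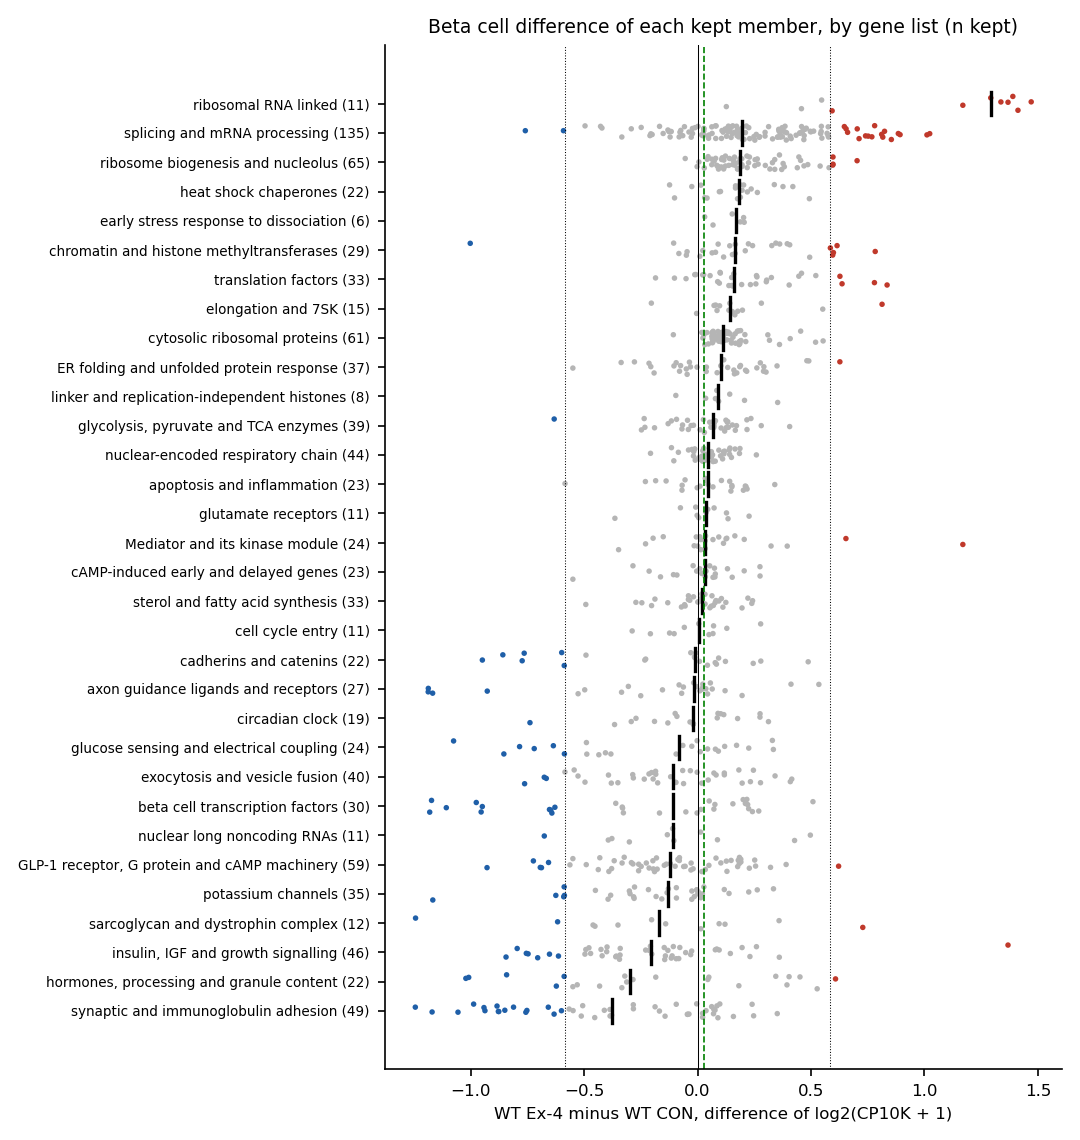
Difference of log2(CP10K + 1), WT Ex-4 minus WT CON, of every kept member of 32 gene lists (number kept in parentheses). Points past 1.5-fold (dotted lines) are red if higher and blue if lower, black ticks are list medians and the green dashed line is the median of all kept genes (0.03). Medians run from -0.38 for synaptic and immunoglobulin adhesion to 1.29 for ribosomal RNA linked genes.

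Direction went with gene span, the genomic distance from the start to the end of the gene in GRCm39 (GENCODE M39). Genes called higher had a median span of 28.6 kb and genes called lower 332 kb, against 35.8 kb for the 9835 kept genes with a position. With the kept genes divided by span into 4 groups of equal size, the longest group (80.4 to 2962 kb) held 203 lower and 10 higher genes and the shortest (0.123 to 17.1 kb) 2 lower and 28 higher. By plain ratio 63.6% of the shortest group were higher and 1.27% lower, whereas 4.60% of the longest were higher and 32.6% lower, and the median fold ran from 1.72 in the shortest group through 1.25 and 0.987 to 0.770 in the longest. After a trend on span was removed, 94 genes were higher and 60 lower, of which 65 and 57 had been called before. The adhesion list then had 2 lower and 2 higher calls and a median of -0.003 and the ribosomal proteins a median of -0.01, whereas the splicing list had 18 higher calls and a median of 0.18. The granule list then had 3 lower calls at a median of -0.17, and islet transcription factors had 6. Only 2 lower genes, Iapp (5.54 kb) and G6pc2 (16.8 kb), fell in the shortest group, and 1, Slc2a2 (33.5 kb), in the next.

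**Figure D4:**
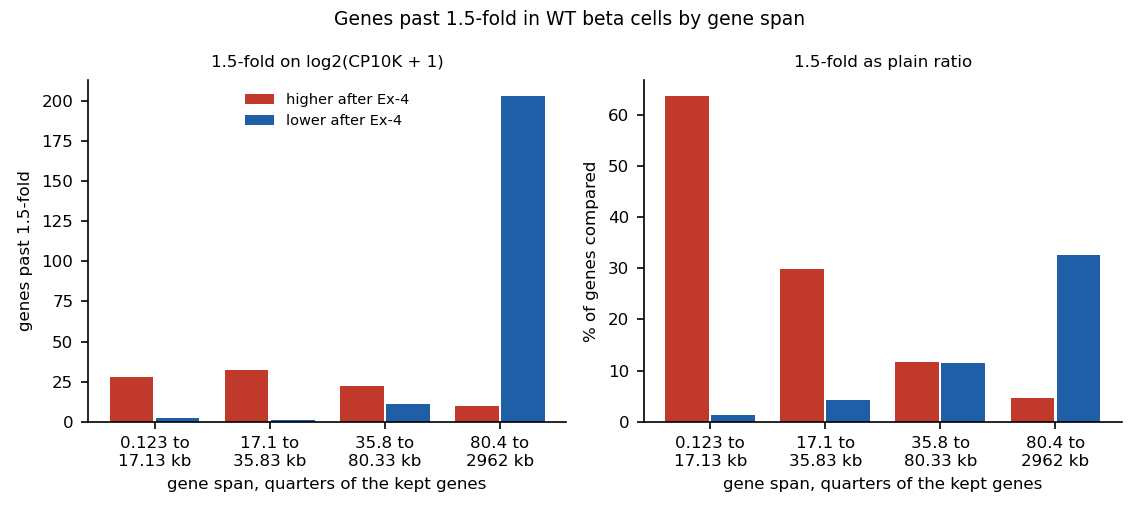
Genes past 1.5-fold in 4 equal groups of kept genes by gene span (x, in kb), as numbers on the log2(CP10K + 1) scale (left) and as a percentage of genes compared by plain ratio (right), red higher and blue lower after Ex-4. The longest group holds 203 lower calls, and the share higher by ratio drops from 63.6% to 4.60%.

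Direction also went with level. Below 0.1 CP10K (mean of both pools) 47.0% of the 1074 genes compared were higher by plain ratio and 8.01% lower, and at 10 CP10K or more 16.7% of 84 were higher and 44.0% lower. Median span rose over the same range from 17.9 kb to 321 kb, so level and span cannot be told apart here. Among the genes with the widest ratios, ranked by the bound nearest to 1 and named after values were seen, the secreted guidance ligand Sema3c had 26 counts in WT CON and 171 in WT Ex-4 (6.65-fold higher, interval 4.38 to 10.5), and the linker histone H1f4 had 24 counts in WT CON and 113 in WT Ex-4 (4.76-fold higher, interval 3.04 to 7.73). On the lower side the ranking included Unc5d, a relative of Unc5c, with 201 counts in WT CON and 47 in WT Ex-4 (4.23-fold lower, interval 3.07 to 5.95), the growth factor Nrg1 with 669 counts in WT CON and 216 in WT Ex-4 (3.07-fold lower, interval 2.63 to 3.59) and the BMP receptor Bmpr1b with 544 counts in WT CON and 181 in WT Ex-4 (2.97-fold lower, interval 2.51 to 3.54). Of 8 kept linker and replication-independent histone genes, a list chosen after values were seen, 0 were called and 5 were higher by ratio. That is 62.5%, against 27.5% of all genes compared and 63.6% of the shortest span group. The median span of this list was 4.3 kb.

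The other islet cells of the same WT islets gave the following values for these genes. In alpha cells (419293 counts in WT CON and 451338 in WT Ex-4) the median difference was 0.78 over the 95 higher genes and -0.55 over the 220 lower genes, and in delta cells (362410 and 431797 counts) it was 0.71 and -0.60, beside 0.70 and -0.74 in beta cells. Of the 220 lower genes, 14 were above 0 in alpha cells and 1 in delta cells. Robo1 differed by -1.19 in beta, -0.23 in alpha and -0.91 in delta cells, Pbx3 by -1.18, -0.16 and -1.26, and Bace2, a beta cell protease, by -1.04, -0.05 and -0.99. Splicing genes had list medians of 0.19, 0.20 and 0.23 in beta, alpha and delta cells, and synaptic adhesion genes -0.38, -0.44 and -0.65. The granule list had -0.30, 0.02 and -0.09. Whether any gene differed between cell types was not tested, since each cell type is 1 pool per condition. Gcg, the alpha cell hormone, was at 85.8 CP10K in WT CON and 34.1 in WT Ex-4 alpha cells.

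The remaining beta cell pools place the WT values. In Med14 S983A beta cells, Ex-4 minus CON had a median of -0.05 over the 95 genes and 0.01 over the 220. Prpf38b was at 1.86 CP10K in WT CON, 1.26 in WT FSK, 4.82 in WT Ex-4, 6.09 in mutant CON, 5.71 in mutant Ex-4 and 1.80 in mutant FSK. Cntnap2 was at 48.0 CP10K in WT CON, 53.8 in WT FSK, 22.6 in WT Ex-4, 16.6 in mutant CON, 18.1 in mutant Ex-4 and 48.2 in mutant FSK. For both genes the mutant CON pool already stood at the side of WT Ex-4. Slc30a8 differed from this pattern under FSK, at 19.3 CP10K in WT CON, 10.9 in WT FSK, 8.98 in WT Ex-4, 7.57 in mutant CON, 7.72 in mutant Ex-4 and 8.44 in mutant FSK. FSK, which activates adenylyl cyclase without the receptor, was compared with the same WT CON pool, so only its own values are given: WT FSK minus WT CON was -0.23 at the median of the 95 genes and 0.00 at that of the 220, -0.11 for splicing and 0.31 for granule genes. G6pc2 was 0.94 under FSK and -0.84 under Ex-4, Pam 1.26 and -0.59, Iapp 0.26 and -1.01, and Rn7sk 1.72 and 0.81.

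**Figure D5:**
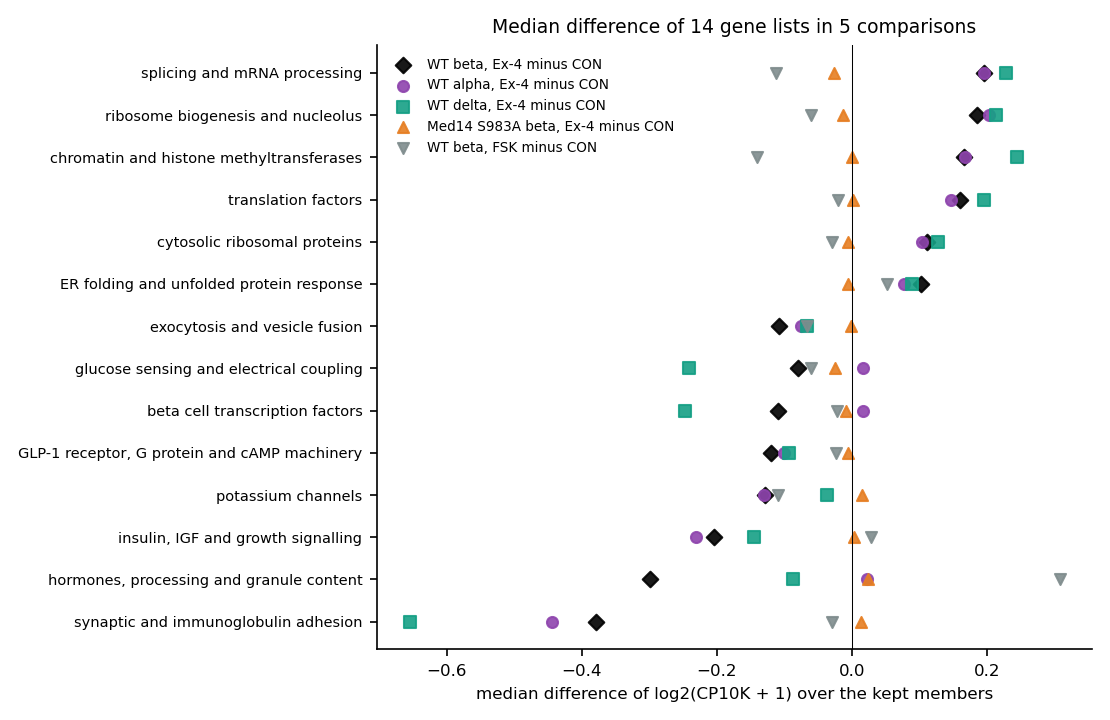
Median difference of log2(CP10K + 1) over the kept members of 14 gene lists (rows) in WT beta (black), WT alpha (purple), WT delta (green) and Med14 S983A beta cells (orange), each Ex-4 minus CON, and in WT beta cells for FSK minus CON (grey). Each point compares 1 pool with 1 pool. WT beta, alpha and delta medians share a sign except in the granule, transcription factor and glucose sensing lists, where alpha lies just above 0, and the Med14 S983A medians lie between -0.03 and 0.02.

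Promoters of the changed genes were searched for the cAMP response element, because CREB acts through it. Sequences were RefSeq promoters on GRCm38.p6, from 250 bases before to 50 after each annotated start, and 80 of 95 higher, 173 of 220 lower and 7896 of 10093 kept genes had at least 1. The palindrome TGACGTCA occurred in 2.5% of the higher, 2.31% of the lower and 3.75% of the kept genes, and in 2.03% of all 27025 genes with a promoter. Its partial site TGACG, on either strand and also counted within the palindrome, occurred in 43.8%, 32.4%, 37.2% and 23.0%. The palindrome was thus no more frequent among higher genes than among all kept genes. It occurred in 2 higher genes, Cmss1 and Eef2, and in 4 lower genes. In Cmss1, Eef2 and the lower gene Nr6a1 it overlaps or follows the start, so no window is shown for these. The windows below show the element (capitals) with 11 flanking bases. First stand 3 lower genes that carry the palindrome before the start, then the partial site or its reverse complement in 4 higher genes. All are written 5′ to 3′ on the strand of the gene.
Mapk10 (chr5:103211345-103211374, minus strand): tctctgggcttTGACGTCAtgtgtgctcct
Tenm3 (chr8:48674735-48674764, minus strand): gatgctttcgcTGACGTCAtgccaaccttt
Kctd8 (chr5:69341719-69341748, minus strand): agttcggagctTGACGTCAgtgccacctcc
Hspa5 (chr2:34771922-34771948, plus strand): gggcgtagcaaTGACGtgagttgcgga
Srrm2 (chr17:23803160-23803186, plus strand): tgattgcgtgcTGACGcactaggtcgt
Prpf38b (chr3:108911734-108911760, minus strand): cgggcgtatggCGTCActtccgctggc
Eif3a (chr19:60790772-60790798, minus strand): acccagcgccaCGTCAgcccgcgctcg
The Mapk10, Tenm3 and Kctd8 palindromes begin 29, 63 and 28 bases before the start, and these genes differed by -0.75, -0.94 and -1.01. The Hspa5, Srrm2, Prpf38b and Eif3a matches begin 157, 16, 20 and 94 bases before it, at differences of 0.63, 1.01, 1.02 and 0.84. A match of letters is not evidence that CREB binds there.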

How the data were processed

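Islet nuclei were profiled by single nucleus RNA-seq, and the authors aligned reads to mm39 (GRCm39, per the submitters' processing notes), removed nuclei at both extremes of depth or with high mitochondrial share, normalized, integrated and annotated them, and pooled each cell type per condition. The deposited values are the natural log of 1 plus counts per 10000 counts of the column; the sources used here do not say whether pooled counts were raw or model-corrected. The scale was inverted to counts per gene, and 100% of values came out whole within 0.001 (largest distance 6.39e-05). No column was left unmatched. Columns of other cell types were used only beside beta cell values.

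Genes were kept by the mean of the 6 beta cell columns, from its 40th percentile up. With 1 pool per condition no test was run; a gene was called at 1.5-fold on log2(CP10K + 1). Exact Poisson and conditional binomial intervals (95%) were computed in Python 3.11.15 with numpy 2.4.6, pandas 2.3.3 and scipy 1.17.1, the span trend with statsmodels 0.14.6 (lowess span 0.3) and plots with matplotlib 3.10.9. The calling step was tested on simulated data. Gene positions came from GENCODE M39. Gene lists and members were chosen with earlier results of these data known. Named genes were the 20 largest and 20 smallest differences among kept genes at or above the median level, the 4 largest and every called member of each list, and Glp1r, Gcg, Sst, Ppy and Med14; any other gene was named after its values were seen, and some genes that meet the rule are not reported here. Only 2 of 6 mitochondrially encoded genes were kept (median 0.50). Alternatives changed the scale, pseudocount, filter, threshold, scaling and span correction.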

Additional observations from a re-analysis of the deposited data

Results flagged for a closer look

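Ribosomal RNA was also higher after Ex-4 in cell types outside the beta, alpha and delta comparison. The ratio of Rn18s-rs5, WT Ex-4 over WT CON, was 1.54 in endothelial cells, 1.91 in macrophages, 1.36 in muscle cells, 4.59 in neurons and 2.00 in PP cells, beside 2.67 in beta cells. In ductal cells it was 0.578, from 57 and 42 counts. Each is 1 pool against 1 pool, and the cause was not tested.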

How the results depend on the processing

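No paired analysis was possible because each condition is 1 pool and no result comes from a test. The 95 higher and 220 lower genes (30.2% higher) became 2319 and 1078 (68.3%) with a pseudocount of 0.1 times the median level, 498 and 484 (50.7%) with 1 times it, and 2744 and 1239 (68.9%) by plain ratio. At 2-fold 11 and 20 remained past the threshold. The share was 45.4% after columns were rescaled to leave out ribosomal RNA linked and mitochondrial transcripts and 24.2% with the median of kept genes set to 0. With the span trend removed 60 were lower and the share was 61.0%. Chosen after seeing the data, the plain ratio gave 2071 and 1877 (52.5%) with its median set to 0, 3183 and 956 (76.9%) rescaled, 1140 and 1162 (49.5%) with the span trend removed, and 904 and 469 with the whole counting interval past 1.5-fold. The filter changed these counts by at most 1 gene. No called gene named here reversed direction. Some list medians changed sign with the span trend removed, among them cytosolic ribosomal proteins (0.11 to -0.01), cadherins and catenins (-0.01 to 0.11) and exocytosis (-0.11 to 0.00). The median of all genes compared by plain ratio was 0.16 on the log2 scale. Counting error is small at this depth for called genes if the counts are raw, which is not known. Variation between islets cannot be estimated. Few genes hold 1 to 10 counts in WT Ex-4, so a 0 there sets no limit.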
